A study of Sus scrofa with 36 samples.

Results

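Thyroid gene expression was compared between 6 F1 pigs slaughtered at 30 °C and 6 F1 pigs slaughtered at 24 °C, which are 12 of the 36 pigs of the series. The 12 pigs were chosen by their labels alone, as samples titled F1 at either temperature, and no measured value entered the choice. All were castrated male growing pigs from the cross of Large White (LW), a lean commercial breed, with Creole (CR), a local breed of the tropics. The series holds 12 CR and 12 LW pigs under the same plan. The hot group is labelled 30 °C, while the protocol text gives 32 °C for 5 days, and the labelled value names the groups here. Pigs of the 24 °C group were slaughtered before the warm period and those of the 30 °C group after it, so temperature cannot be told apart from the day of slaughter and the age that goes with it. Each breed came from a small number of litters, pen and litter are not in the labels, and the pigs were treated as independent. The p-values therefore measure the spread between these pigs only.

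The thyroid makes thyroid hormone from iodine inside a large protein, thyroglobulin, and this hormone sets the basal rate of heat production. In the adult gland few follicular cells divide, but these pigs were still growing, and the share of dividing cells in their glands was not measured. A dividing cell switches on its genes in order, first those that copy DNA and supply its building blocks, then those that condense and separate the chromosomes, and most of these transcripts are low in a resting cell. Heat shock chaperones, which refold damaged proteins, are the textbook response of cells to a rise in temperature.

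Values are deposited log2 intensities from 1-colour arrays with probes of 60 bases, and a difference of 1 is a doubling. Of the 46097 probes tested, 24011 carried a gene name and stood for 11425 genes. On the 12 F1 arrays 74.6% to 79.7% of the probes were well above background, the median intensity lay between 134 and 173 units against 25 to 28 for the negative controls, and log2 values of any 2 arrays correlated at 0.987 to 0.995. The whole gland was sampled, so fewer cells of a type and less RNA per cell cannot be told apart. The follicular genes TG, the gene of thyroglobulin, and SLC5A5, the iodide transporter, were well above background in all 12 F1 pigs, with mean log2 values over the 24 °C pigs of 18.8 and 16.5.

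Genes of cell division were lower in the hot F1 pigs, and 27 of the 51 named genes that fell were on the lists of mitosis or DNA replication genes. A probe is called when its adjusted p, from limma with Benjamini-Hochberg adjustment over all probes, is under 0.05. Of the 46097 probes, 174 were called, or 0.377%, of which 127 were lower (0.276%) and 47 higher (0.102%) at 30 °C. The lower probes changed by a median of -0.76 and 40 of them by at least 1, whereas the higher probes changed by a median of 0.46 and 3 by at least 1. Named probes among the calls stood for 59 genes (0.516% of the named genes), 51 lower and 8 higher. The 2 temperature groups did not overlap at 128 of the called probes, 101 lower and 27 higher, against 0.861% of all probes, 0.469% lower and 0.393% higher. Calls were made on the difference between these same groups, so a larger share among them follows from the choice and adds no support. Scaling the median signal to the 75th percentile of each array moved the split to 90 lower and 55 higher, or 37.9% higher against 27.0%. These calls rest on a spread estimated over all 36 pigs: with the 12 F1 arrays alone limma called 0 probes, with a smallest adjusted p of 0.0777 and 4789 probes at an unadjusted p under 0.05, against 4901 with all arrays. With the position of an array on its slide as a fixed block 18 probes were called, although all 174 kept their sign and the lower ones a median change of -0.73.

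Some of the probes behind this response are printed here to show which transcripts were read. The probes for CDK1, the kinase that starts mitosis, TOP2A, the topoisomerase that untangles replicated DNA, and PCLAF, a partner of the replication clamp, are given whole, 5′ to 3′.
CDK1 probe: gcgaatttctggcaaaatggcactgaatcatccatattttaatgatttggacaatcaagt
TOP2A probe: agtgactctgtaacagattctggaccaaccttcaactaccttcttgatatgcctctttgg
PCLAF probe: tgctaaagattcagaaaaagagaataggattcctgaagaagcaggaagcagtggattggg
The CDK1 probe changed by -1.66, this TOP2A probe by -1.54 and this PCLAF probe by -0.80, each with an adjusted p under 0.05.

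Of the 174 called probes 85 had no gene name, 47 of them lower. The largest called fall was among them, and its sequence overlapped a named probe. It shared a run of 57 bases with the second CDK1 probe, and 2 more unnamed probes shared 56 bases with each other. The first 30 of the 60 bases of each are shown, with the shared run in capitals.
Unnamed probe A: CCACACGTTGTATCAAGAACAGATAGTTGT
Second CDK1 probe: ttcCCACACGTTGTATCAAGAACAGATAGT
Unnamed probe B: GTAATAGCTCCATGCAGAGGACAATTTCAT
Unnamed probe C: ttatGTAATAGCTCCATGCAGAGGACAATT
Probe A changed by -1.75 ± 0.27 (SE, adjusted p = 0.00229) and the second CDK1 probe by -1.65. Probes B and C changed by -1.05 and -0.87. The members of each pair fell together and are not independent measurements. One pair went apart: an unnamed probe that rose by 0.45 (adjusted p = 0.044) had the same 60 bases as an ABCG1 probe whose change was 0.29 (adjusted p = 0.567), so a single sequence was called at one spot and not at the other.

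Among the genes of chromosome condensation and spindle, CDK1 was read with values of 9.02, 10.27, 9.94, 8.45, 9.05 and 9.09 in the 24 °C pigs and 7.53, 7.60, 7.63, 7.88, 7.99 and 7.21 in the 30 °C pigs. All 6 hot pigs lay below all 6 pigs at 24 °C, and the second and the third pig at 24 °C were the highest. The difference was -1.66 ± 0.28 (SE), a 3.16-fold fall (adjusted p = 0.00403). KIF23, a kinesin of the dividing cell's midbody, stood at 7.57, 8.80, 8.42, 7.08, 7.46 and 7.54 in the 24 °C pigs and at 6.09, 6.10, 6.27, 6.28, 6.51 and 6.23 in the hot pigs. Its groups did not overlap either, and it fell by 1.56 (adjusted p = 0.00312). CCNB1, the cyclin that activates CDK1, ran from 8.47 to 10.19 at 24 °C and from 7.52 to 7.88 at 30 °C and changed by -1.41 ± 0.25 (SE). UBE2C, which marks mitotic cyclins for destruction, changed by -1.54, CDCA3, a trigger of mitotic entry, by -1.57, and TOP2A by -1.48 at its probe with the smallest p. CENPF, a kinetochore protein, changed by -1.40, and the spindle proteins TPX2 and SPAG5 each by -1.26.

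**Figure D1:**
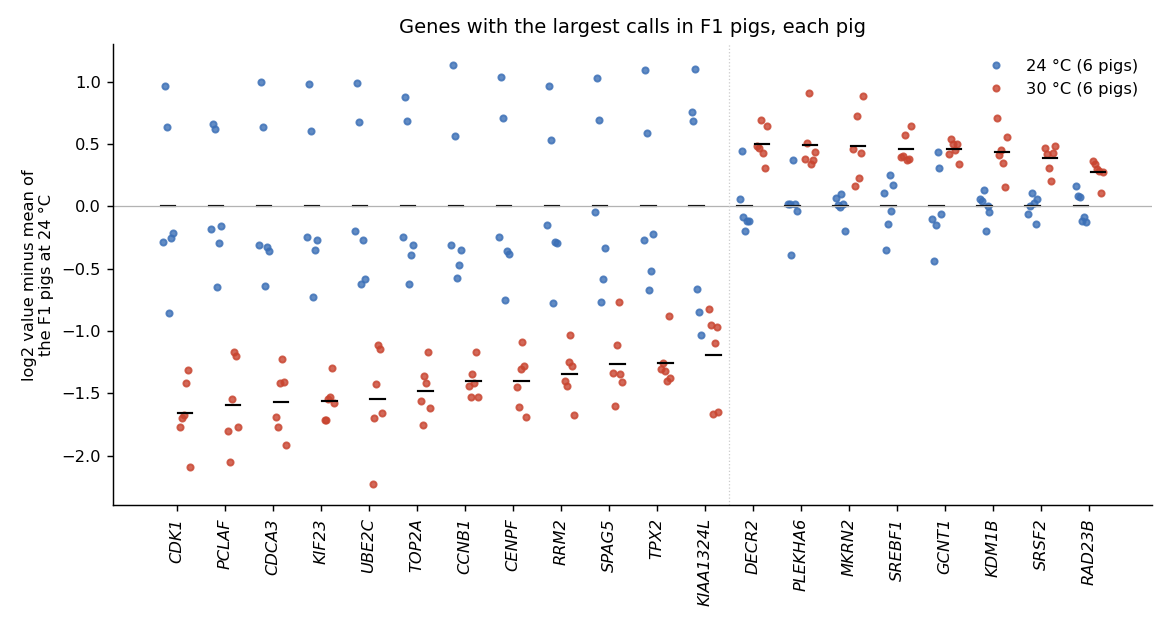
Values of the 12 genes with the largest called falls and the 8 called rises in each F1 pig, as the log2 value minus the mean of the 6 pigs at 24 °C (y axis). Blue points are pigs at 24 °C, red points pigs at 30 °C, and black bars group means: in CDK1 to TPX2 the red points lie below the blue ones and the blue ones are spread more widely, as in CDK1 with an SD of 0.67 against 0.27.

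The list of mitosis and G2/M genes gave the count behind these examples. Of its 50 measured genes, 48 were lower at 30 °C and 21 were called, all lower, or 42.0%, against 0.394% of all named genes read the same way, at the probe with the highest mean. Its median change was -0.51, against 0.01 over all named genes. Counting any called probe, 22 of its genes were called: CDK1, CCNB1, CCNB2, CDC20, KIF4A, KIF15, KIF23, TOP2A, CENPA, CENPF, NUSAP1, TPX2, UBE2C, CDCA3, NUF2, SPC24, DLGAP5, PBK, PTTG1, NEK2, STMN1 and SGO1. CDC20, the activator of the anaphase ligase, changed by -1.14, and PTTG1, the securin that it destroys, by -1.12. STMN1, a microtubule regulator, had 8 probes, all lower, of which 6 were called, and the named one fell by 0.53. CENPA, the centromere histone, and NEK2, a centrosome kinase, were well above background in 5 of 6 pigs at 24 °C and in 0 of 6 at 30 °C, so only a bound can be given, at least 1.49-fold lower for CENPA and at least 1.30-fold lower for NEK2. A further 3 called probes had no gene name and were well above background on no array of 1 group. Of these, 2 were lower at 30 °C, by at least 1.42-fold and 1.57-fold, and the other was higher, by at least 1.35-fold.

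The list's score, the mean log2 value of its genes in a pig, was 8.53, 9.16, 8.97, 8.32, 8.43 and 8.42 in the 24 °C pigs and 7.86, 7.97, 8.03, 8.08, 8.08 and 7.997 in the 30 °C pigs. The groups did not overlap, and the pigs at 24 °C were the more variable, with an SD of 0.34 against 0.08. The same held at the called lower probes, whose median SD was 0.42 at 24 °C and 0.17 at 30 °C and was larger at 24 °C in 109 of 127, whereas it was larger at 24 °C in 40.1% of all probes. The score was lower at 30 °C within each of the 4 slides that held both groups, by -0.61, -1.13, -0.57 and -0.35, and at each of the 3 slide positions that did, by -0.57, -0.45 and -0.46. Each of these slides held 1 or 2 F1 pigs per temperature, and each of these positions 1 per temperature. These differences therefore rest on single pigs or nearly so. The number of called genes fell from 21 to 12 without the second pig at 24 °C and to 12 without the third, while the median change stayed between -0.57 and -0.43 whichever pig was left out. With slide position as a fixed block 2 genes of the list were called, at a median change of -0.47.

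Genes that copy DNA moved less. Of 39 measured genes of DNA replication and nucleotide supply 31 were lower, against 5423 of all 11425 named genes, with a median change of -0.19. At the brightest probe 3 were called, all lower, or 7.7%, against 0.394% of all named genes. At any probe 5 were called, or 12.8%, against 0.516%. Without the third pig at 24 °C 1 of the 3 was called at the brightest probe, and without the second 2 were. RRM2, the subunit of ribonucleotide reductase made in S phase, was at 8.89, 9.999, 9.57, 8.26, 8.75 and 8.74 in the pigs at 24 °C and at 7.64, 7.59, 7.78, 7.999, 7.75 and 7.36 in the hot pigs, again without overlap. It changed by -1.35 ± 0.27 (SE, adjusted p = 0.0125). PCLAF changed by -1.59 ± 0.29, and a further probe labelled KIAA0101, its older symbol, by -1.12, so 2 of the 51 lower names are 1 gene. UHRF1, which keeps DNA methylation through replication, changed by -0.75. A probe that the array annotation describes as thymidine kinase changed by -1.36. The genes of G1 cyclins, kinases and brakes did not follow: none of 21 was called and their median change was -0.04. The pyrimidine metabolism list had 1 called gene of 18 (5.6%, against the same 0.394%), which was RRM2, and a median change of -0.05.

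**Figure D2:**
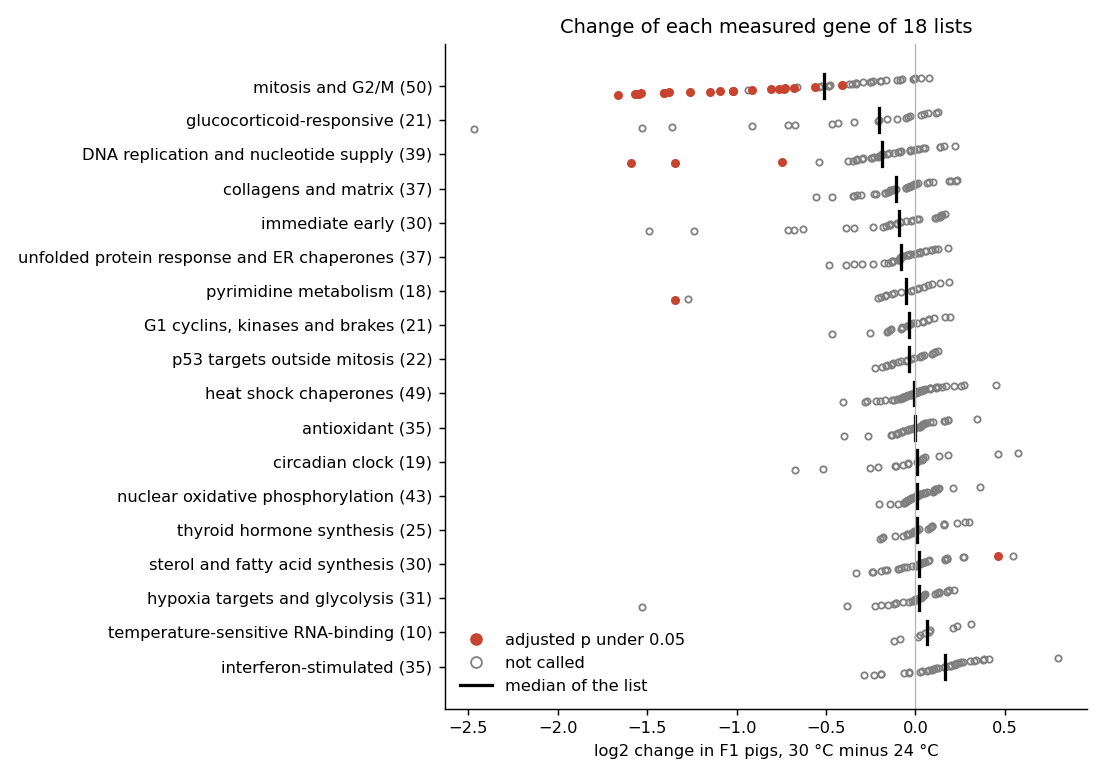
Log2 change in F1 pigs of each measured gene (point) of 18 gene lists, with the number of genes in brackets, red where adjusted p was under 0.05 and a black bar at the list's median. The mitosis and G2/M list lies lowest with a median of -0.51, and heat shock chaperones centre at -0.01.

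Of the 51 genes called lower, 27 were in the mitosis or the DNA replication list and 24 in neither, and the latter are named here after their values were seen. Among them were genes known from dividing cells or chromatin and genes without a settled role: SPAG5, SKA1, CKAP2L, KIFC1, ZWILCH, CCNF, STIL, ASF1B, H2AFZ, TCF19, ARHGAP11A, MTBP, GPR19, C4orf46, ZUFSP and KIAA0101. KIAA0101 is counted here by its own label, although PCLAF, the same gene, is in the DNA replication list. ARHGAP11A, a GTPase regulator, changed by -0.90 ± 0.14 at 3 probes of 3 called, and SKA1, of the kinetochore, by -1.08. The remaining 8 were KIAA1324L, TPD52, PHYH, BTG1, CINP, NOL11, STXBP3 and C9orf152. BTG1, a brake on proliferation, stood at 9.88 to 10.19 at 24 °C and at 9.37 to 9.89 at 30 °C and changed by -0.45, lower at all 6 of its probes, 4 of them called. PHYH, the peroxisomal enzyme that starts the breakdown of phytanic acid, changed by -0.58 with 6 probes of 6 lower. KIAA1324L split the pigs at 24 °C: 3 lay between 8.503 and 8.92 and 3 between 6.79 and 7.15. The hot pigs lay between 6.15 and 6.999, and 2 of the pigs at 24 °C fell within that range. Its change was -1.19, and its call was lost in 7 of the 12 fits that left out a pig.

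The 8 genes called higher changed less, and several of them rest on 1 probe among others that differ. MKRN2, a ubiquitin ligase, was at 6.69, 6.63, 6.62, 6.72, 6.64 and 6.43 in the pigs at 24 °C and at 7.08, 6.79, 7.35, 6.85, 7.05 and 7.51 in the hot pigs, without overlap, and it changed by 0.48 ± 0.09 (adjusted p = 0.00697). SRSF2, a splicing factor, was at 12.10, 12.16, 12.26, 12.18, 12.02 and 12.21 against 12.62, 12.58, 12.47, 12.36, 12.58 and 12.64, again without overlap, a change of 0.39 ± 0.07 (adjusted p = 0.00749). All 9 SRSF2 probes were higher, by 0.19 to 0.39, although 1 was called. KDM1B, a histone demethylase, changed by 0.44 with 3 probes of 3 higher. SREBF1, the activator of fatty acid synthesis genes, ran from 10.53 to 11.13 at 24 °C and from 11.25 to 11.53 at 30 °C and changed by 0.46 at the named probe and by 0.48 at a second, both called, while its other 2 probes were lower, by -0.34 and -0.39, and not called. Of the 30 measured sterol and fatty acid synthesis genes SREBF1 was the 1 that was called (3.3%, against 0.394% of all named genes), and the list's median change was 0.02. DECR2, of peroxisomal fatty acid oxidation, changed by 0.50 at 1 probe and by -0.02 at the other. RAD23B, of DNA repair, was higher by 0.28 at 1 probe and lower at its other 8. PLEKHA6 and GCNT1, a glycosyltransferase, changed by 0.49 and 0.46. SREBF1, DECR2 and GCNT1 were each no longer called in 10 of the 12 fits that left out a pig, while MKRN2 and SRSF2 were called in all 12.

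The largest called rises were at unnamed probes, whose first 30 bases are given because no name identifies them.
Unnamed probe D: ctgaagaagacatctcctggatggagaagg
Unnamed probe E: cggggggcaatgtgtatggctttggagtta
Unnamed probe F: tgggtttttaatcaactaacaaattaacac
Probe D rose by 1.198 ± 0.25 (SE), from 6.79 to 7.58 at 24 °C to 8.05 to 9.24 at 30 °C, and probe E by 1.11 ± 0.23, from 10.41 to 11.38 to 11.73 to 12.34. Neither probe's groups overlapped. Probe F rose by 1.02 ± 0.21, with one pig at 24 °C, at 8.20, inside the range of the hot pigs. A probe that the array annotation describes as a VEGF receptor 1 rose by 0.75 ± 0.16, from 7.89 to 8.28 up to 8.51 to 9.15.

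Heat shock and thyroid genes were not called. None of 49 measured heat shock chaperones was called, against 0.394% of all named genes. At that share lists of this size would seldom hold a call, so the absence of calls says little about them. Of the 49, 23 were higher and 26 lower, and the median change was -0.01. In limma 6 of them had an unadjusted p under 0.05, against 1106 of all 11425 named genes. HSPA8, the constitutive HSP70, changed by -0.22 ± 0.12 (adjusted p = 0.515), HSPH1, its exchange factor, by -0.28 ± 0.12 (adjusted p = 0.363) and HSPD1, the mitochondrial chaperonin, by -0.07. HSP70.2, an inducible HSP70 of the pig that was looked at after its value was seen, changed by -0.08 ± 0.20. HSP90AA1 changed by 0.27 ± 0.13 at its brightest probe, with 3 of 9 probes higher and 6 lower. DNAJB1 and HSF1, the factor that switches on the chaperones, changed by -0.03 and 0.11. In the endoplasmic reticulum, none of 37 genes of the unfolded protein response and ER chaperones was called and 3 had an unadjusted p under 0.05. Of these 37, HSPA5 changed by -0.24 ± 0.13. Of the genes that answer small changes of temperature, CIRBP changed by 0.05. Of the 10 measured temperature-sensitive RNA-binding genes 0 were called in limma at the probe with the highest mean, 2 at an unadjusted p under 0.05, and 1, SRSF2, at any probe, against 0.516% of all named genes. None of 25 genes of thyroid hormone synthesis was called, with a median change of 0.01: TG changed by 0.07 ± 0.15, SLC5A5 by 0.27 ± 0.36, TSHR, the receptor of thyrotropin, by -0.02 ± 0.14, and the thyroid transcription factors PAX8 and NKX2-1 by 0.08 and 0.01. Several hot pigs had the identical TG value of 18.9683, as quantile normalization gives to probes of equal rank. Whether this hid a change of TG was not tested, so its small change need not mean a stable transcript. HSPA1A and RBM3 were not analysed here.

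The largest fall of any named gene was not called, and the pigs differed widely in it. PDK4, which turns cells from glucose to fat as fuel, was at 14.60, 16.00, 15.03, 12.62, 14.95 and 13.75 in the 24 °C pigs and at 11.54, 13.96, 11.69, 13.52, 11.29 and 10.13 in the hot pigs, and its groups overlapped. It changed by -2.47 ± 0.79 (adjusted p = 0.210), lower at all 11 of its probes. ANGPTL4, an inhibitor of lipoprotein lipase, changed by -1.53 ± 0.48 (adjusted p = 0.195) with 5 probes of 5 lower, ZBTB16 by -1.36 ± 0.48 and PER1, a clock gene, by -0.67 ± 0.22. These 4, and FKBP5 at -0.47 ± 0.21, are in a list of glucocorticoid-responsive genes, of which 16 of 21 measured were lower, with a median change of -0.20. In limma 0 of the 21 were called, against 0.394% of all named genes. At an unadjusted p under 0.05 there were 8, against 1106 of all 11425 named genes. Among the immediate early genes, which answer within minutes, FOS changed by -1.49 ± 0.54 (adjusted p = 0.282), JUN by -0.68 ± 0.28 and DUSP1 by -0.71 ± 0.22, and 0 of 30 were called, 7 at an unadjusted p under 0.05. The genes in this paragraph were named after their values were seen.

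The remaining lists held no called gene in limma, against 0.394% of all named genes. They had 0 to 3 members at an unadjusted p under 0.05, against 1106 of all 11425 named genes. Their median changes were -0.04 for 22 p53 targets outside mitosis, 0.01 for 19 clock genes (3), -0.01 for 35 antioxidant genes (1), 0.01 for 43 nuclear genes of oxidative phosphorylation (0), 0.02 for 31 hypoxia and glycolysis genes (2), 0.17 for 35 interferon-stimulated genes (0) and -0.11 for 37 collagens and matrix genes (0), where the number in brackets is that of members at an unadjusted p under 0.05 and is 0 for the p53 targets.

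Markers of other cell types were examined beside the mitotic genes, and 0 genes of the 14 marker lists were called, against 0.394% of all named genes. Erythroid markers were lower at 30 °C in 5 of 7 at a median change of -0.15, with a score of 8.03 to 8.39 at 24 °C and 7.85 to 8.07 at 30 °C. The member that fell most was HBB, a globin, which changed by -0.94 ± 0.34 (adjusted p = 0.272). Neutrophil and myeloid markers were lower in 9 of 10 at a median change of -0.13, with scores of 8.11 to 8.73 against 7.75 to 8.23. The member that fell most was BPI, a neutrophil granule protein, which changed by -1.98 ± 0.54 (adjusted p = 0.111), by -2.82 in CR and by -0.22 in LW. HBB and BPI were named after their values were seen. The scores of both lists overlapped between the groups. Fibroblast markers were lower in 8 of 8 at a median change of -0.15 and adipocyte markers in 8 of 9 at -0.20, both with wide overlap. T cell and thymocyte markers had a median change of -0.08, B and plasma cell markers of 0.02, thymic epithelium of 0.04, skeletal muscle of 0.08, melanocytes of 0.11, parathyroid of -0.15, smooth muscle of 0.03, endothelium of -0.01, C cells of -0.01 and follicular cells of 0.04. The part of these cells in the fall of the mitotic genes was not tested.

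Set beside the parent breeds, the mitotic fall of the F1 pigs was of the size seen in CR pigs. For the mitosis and G2/M list the median change was -0.51 in F1, -0.53 in CR and -0.24 in LW. Its score went from 8.64 ± 0.34 at 24 °C to 8.002 ± 0.08 at 30 °C in F1 (SD, n = 6 each), from 8.74 ± 0.17 to 8.06 ± 0.23 in CR and from 8.41 ± 0.25 to 8.11 ± 0.07 in LW. Of the 127 probes called lower in F1, 123 were also lower in CR and 115 in LW, by a median of -0.72 and -0.32 against -0.76 in F1. Of the 47 called higher, 38 were higher in CR and 43 in LW, with medians of 0.16 and 0.17 against 0.46 in F1. Over all 11425 named genes, at the probe with the highest mean, 5347 were lower in CR and 5385 in LW. Both sets of probes were picked by their change in F1, which favours a larger median there. Their medians therefore do not show a difference between breeds. In CR 173 probes were called (0.375%), and 94 were called in both, which is 54.0% of the F1 calls and 54.3% of the CR calls. In LW limma called 0 probes (0%), with 1844 at an unadjusted p under 0.05.

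**Figure D3:**
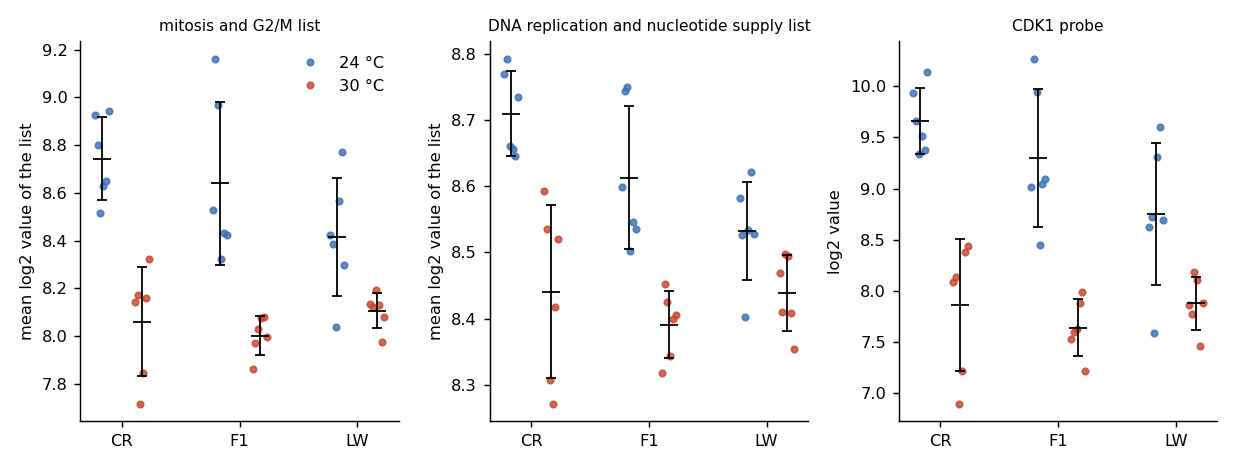
Mean log2 value of the genes of the mitosis list, of the DNA replication list and of the CDK1 probe in each pig of the 6 groups (points, blue 24 °C, red 30 °C), with group mean and SD (bars). F1 pigs at 24 °C spread from 8.32 to 9.16 in the mitosis list and those at 30 °C from 7.86 to 8.08.

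The difference between breeds was tested as an interaction, and limma called 0 of 46097 probes (0%) for F1 minus CR, for F1 minus LW and for F1 minus the mean of both, with smallest adjusted p of 0.853, 0.401 and 0.447. At an unadjusted p under 0.05 there were 2631, 2561 and 3209 probes. Leaving out 1 F1 pig at a time gave 0 to 2 called probes for F1 minus the mean of both, with 2 without the first and 1 without the fourth pig at 24 °C. For CDK1, whose change was -1.66 in F1, -1.80 in CR and -0.87 in LW, F1 minus the mean of both had an unadjusted p of 0.357. The called genes whose F1 change lay farthest from the other breeds relative to its error included NOL11, CINP, C9orf152, SRSF2, STXBP3 and TPD52, none of them on the mitosis or DNA replication lists. NOL11, of ribosome assembly, changed by -0.35 in F1, 0.13 in CR and 0.07 in LW, a difference from the mean of both of -0.45 ± 0.09 (SE, adjusted p = 0.447), although its second probe was higher in F1. CINP, a CDK2-interacting protein, differed by -0.51 ± 0.12, C9orf152 by -0.58 ± 0.14, STXBP3, of vesicle fusion, by -0.30 ± 0.08 and TPD52 by -0.65 ± 0.18. SRSF2 differed the other way, by 0.35 ± 0.09, with a change of -0.0046 in CR and 0.08 in LW. These 5 genes each had an adjusted p of 0.619, and they were picked among genes already called in F1, which favours a difference.

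**Figure D4:**
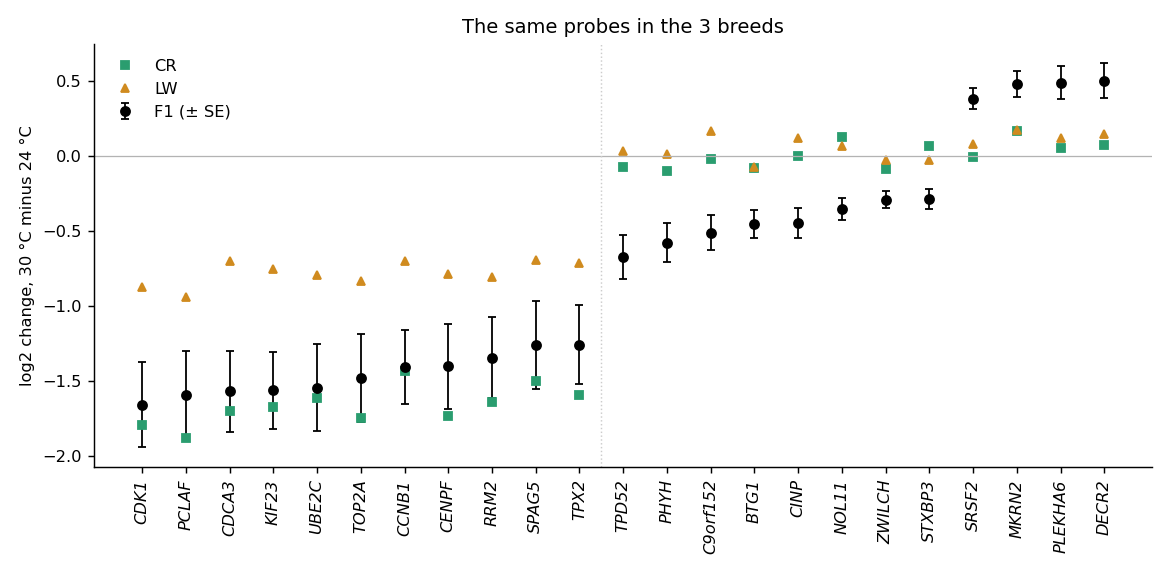
Log2 change at 30 °C of the same probe in F1 (black, ± SE), CR (green squares) and LW (orange triangles), for the 11 mitotic and replication genes with the largest F1 falls (left of the dotted line) and for the called genes with an unadjusted p under 0.01 for F1 minus the mean of CR and LW (right, 12 shown). On the left CR lies near F1, as for CDK1 at -1.80 and -1.66, and on the right CR and LW lie between -0.10 and 0.17.

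The number of called probes varied more with the pigs included than with the scaling. The scalings tried gave 145 to 174 called probes, while leaving out 1 pig gave 68 without the third pig at 24 °C and 263 without the fourth.

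**Figure D5:**
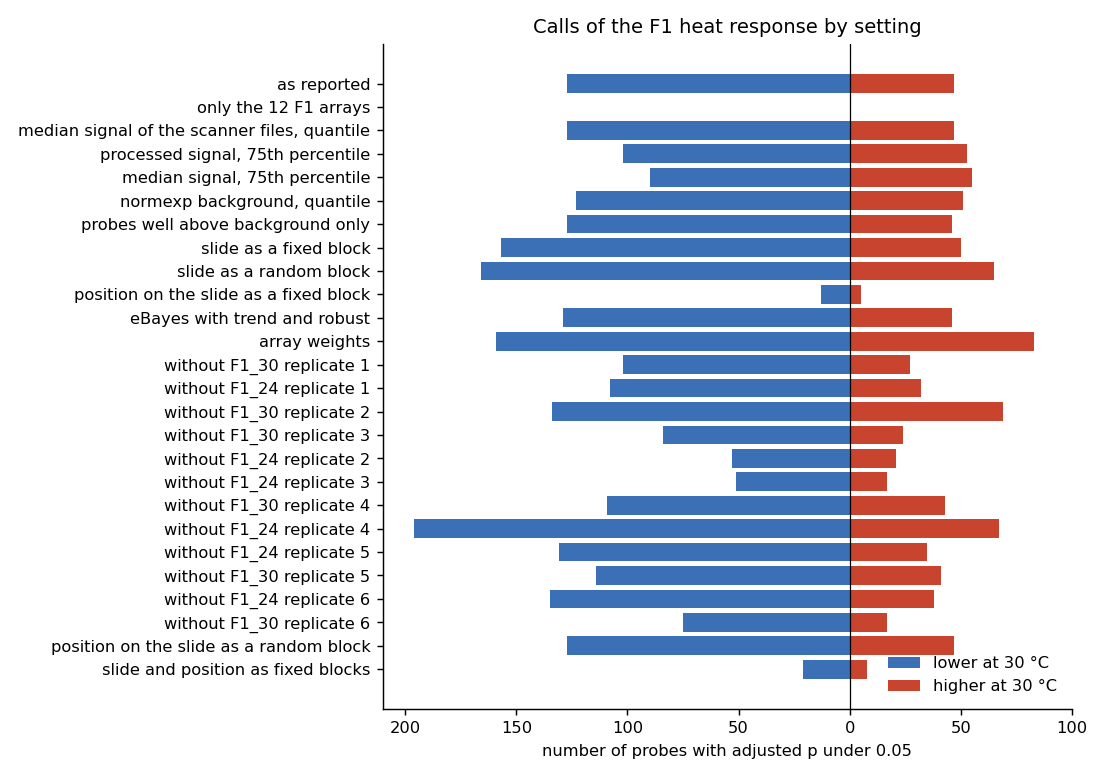
Number of probes called lower (blue, to the left) and higher (red, to the right) at 30 °C in F1 pigs under each setting. The reported setting gave 127 and 47, the 12 F1 arrays alone gave 0, and slide position as a fixed block gave 13 and 5.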

How the data were processed

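Each of 36 Agilent porcine arrays, on 5 slides, read the Cy3-labelled thyroid RNA of 1 pig. Per the file headers the scanner intensity values came from Agilent Feature Extraction 10.10.1.1. The authors took median pixel intensity without background subtraction, applied quantile normalization and deposited log2 values for 46097 probes. Those deposited log2 values were analysed here. The rule by which the authors kept probes is not given in the sources used here. Flags of the scanner files gave which spots were well above background.

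All 36 arrays entered limma 3.58.1 (R 4.3.3) with 6 group means, so all groups share an estimate of spread, and adjustment ran over all probes. The study's own model held pen, slaughter day and parents, which the labels do not give. A total of 17 values of the F1 pigs was missing. Probe names came from the scanner files, updated with RefSeq gene names (Sscrofa11.1), and 22086 probes stayed unnamed, antisense probes included. No probe coordinates and no promoter sequences were used here. A gene in a list was read at its probe with the highest mean. Genes were named by rule: the 12 largest called falls and rises at the probe with the smallest p (8 rises exist), 16 fixed thyroid and stress genes, and up to 5 called genes per list. The F1 pigs as a subject, the lists and the rules were chosen with earlier results of these data known. Remaking the log2 values from the scanner intensity gave a median difference of 0.0056. Alternatives were other scalings, a filter on dim probes, slide and position blocks, other variance settings, the F1 arrays alone and leaving out each F1 pig. Tested on simulated data for 30 against 24 °C in F1 over 46097 probes, the fit called 92 of 100 probes changed by 1 and 99 of 100 changed by 2, with 9 false calls. The simulated pigs were independent and had the same SD in every group. The real called lower probes had a median SD of 0.42 at 24 °C and 0.17 at 30 °C, so these counts need not hold for them. The number of arrays limits the precision. Some genes are not reported here.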

Additional observations from a re-analysis of the deposited data

Results flagged for a closer look

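In 230 groups of 6 pigs (a named gene or a list score at 1 temperature), 11 held a pig set apart from the other 5 by a gap above the critical share of the group's range, and chance alone flags about 1 group in 20. Of the 11, 4 belonged to the fourth F1 pig at 24 °C, whose omission raised the number of called probes to 263. It was high for the fibroblast markers (12.2 against 11.4 to 11.6) and for collagens and matrix (11.7 against 11.3 to 11.4), and low for the antioxidant list (11.55 against 11.64 to 11.68) and for PHYH (12.995 against 13.29 to 13.45). The second pig at 24 °C was low for the interferon-stimulated list (9.85 against 10.22 to 10.32). The sixth pig at 24 °C was low for MKRN2 (6.43 against 6.62 to 6.72) and high for HSPH1 (10.84 against 10.40 to 10.55).

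At 30 °C the fifth pig was high for TPX2 (8.29 against 7.77 to 7.92) and low for RAD23B (10.47 against 10.64 to 10.73). The third pig was high for PLEKHA6 (10.14 against 9.57 to 9.74), and the second for TPD52 (9.65 against 9.40 to 9.46). No difference between breeds was flagged.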

How the results depend on the processing

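Different pigs were slaughtered at each temperature and the labels do not give their litter, so no analysis paired by litter was possible. The main limit is the spread: the 12 F1 arrays alone gave 0 called probes (0 higher, 0 lower). Slide position as a fixed block gave 18 (5 higher, 13 lower), 17 of them among the 174, and slide with position, added after the data were seen, gave 29 (8 higher, 21 lower), 23 of them among the 174. As a random block, also added later, position gave 174. The cause of the drop was not tested. Array weights gave 83 higher probes. Leaving out each of the 12 pigs gave 68 to 263 called probes, 17 to 69 higher and 51 to 196 lower, lowest without the third and the second pig at 24 °C (68 and 74) and, among hot pigs, without the sixth and the third (92 and 108). Of the 174 calls, 56 were made in all 12 of these fits, 45 lower and 11 higher. For F1 minus the mean of CR and LW the same fits gave 0 to 2 called probes, 2 without the first and 1 without the fourth pig at 24 °C. The other scalings, the filter, the slide as a block and the remaining settings kept the total within 1.5 times of 174.

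Signs turned at 6 genes that were not called. When each pig was left out in turn, the change ran from -0.023 to 0.117 for TG, from -0.115 to 0.0526 for TSHR, from -0.0315 to 0.0429 for NKX2-1, from -0.0587 to 0.0202 for DNAJB1, from -0.00112 to 0.0896 for CIRBP and from -0.197 to 0.0506 for HSP70.2. TSHR turned to 0.0287 with position as a block and HSP70.2 to 0.00664 with array weights. NKX2-1 turned to -0.00577 and -0.00924 with 75th percentile scaling, to -0.0109 with slide, -0.0376 with position and -0.0644 with both as blocks. The search for motifs in promoters was not run.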
